A study of Mus musculus with 16 samples.

Results

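The ATRX-dependent heterochromatin nanodomains (HNDs) that lie in or beside imprinted genes of mouse embryonic stem cells (ESCs) are described here. An HND was a peak of trimethylated lysine 9 on histone H3 (H3K9me3) that the authors called in wild-type (WT) ESCs and not in Atrx KO ESCs. Its members were chosen by position: 40 imprinted genes of 19 clusters were named, each gene record of the GENCODE M1 annotation was extended by 50 kb on both sides, and every HND touching such a window was taken. Of the 40 genes, 39 had a record, and Kcnq1ot1 had none under that name. Of the 13113 HNDs in the list, 25 (0.191%) lay in the windows.

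WT ESCs of the line wt26 were compared with ATRX knock-out ESCs, all grown on gelatine in serum and LIF. The KO cells were the clones KO1-40 and KO1-45, and the labels leave it unstated which clone gave which KO library. H3K9me3, histone H3 and IgG precipitates and input were sequenced, with 2 WT and 2 KO libraries of each kind, 16 libraries in all. The outcome was deposited as 1 list of positions on the mouse assembly mm9, with 0 columns of single libraries, so no spread between replicates exists for any value here and no test over samples could be made. Intervals given below cover counting error only. An HND states that a peak was called in WT and not in KO. It gives neither the height of the peak nor the parental chromosome it came from, and H3K9me3 present in both genotypes is not in the list.

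Imprinted genes are expressed wholly or mainly from the maternal or the paternal chromosome, some of them only in certain tissues. Their expression is set by differentially methylated regions (DMRs) that receive DNA methylation in the egg or the sperm, and at many clusters such a germline DMR overlaps the promoter of a protein-coding gene or of a non-coding RNA. The methylated allele of a germline DMR is known to carry H3K9me3 in ESCs, where the zinc-finger protein ZFP57 binds a methylated hexamer and recruits KAP1 and the H3K9 methylase SETDB1. ATRX is a chromatin remodeller that deposits the histone variant H3.3 together with DAXX and is known from telomeres, repeats and imprinted DMRs.

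The HNDs nearest to starts of imprinted transcripts are shown first. For each, 300 bases are given on mm9, + strand, 5′ to 3′. They lie around the centre of the HND, except at Peg10, where they were centred on the marked codons. In the Peg10 HND the capitals mark the codons of a CCHC zinc knuckle, the motif of retroviral nucleocapsid proteins, at chr6:4705256-4705297. In the others the capitals mark CpG, the site of DNA methylation. HND 2 of Gnas, at the 3′ end of that gene, and HND 2 of Nap1l5, within Herc3, overlap untranslated exons and are not printed.
Peg10 HND 1, chr6:4705127-4705426 (+): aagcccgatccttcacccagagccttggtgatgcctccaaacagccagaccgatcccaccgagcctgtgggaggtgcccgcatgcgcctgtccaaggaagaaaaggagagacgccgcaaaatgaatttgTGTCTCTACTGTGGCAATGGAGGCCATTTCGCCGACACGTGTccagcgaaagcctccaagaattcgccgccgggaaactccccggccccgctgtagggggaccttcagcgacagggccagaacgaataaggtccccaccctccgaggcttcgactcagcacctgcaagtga
Snrpn HND 2, chr7:67154677-67154976 (+): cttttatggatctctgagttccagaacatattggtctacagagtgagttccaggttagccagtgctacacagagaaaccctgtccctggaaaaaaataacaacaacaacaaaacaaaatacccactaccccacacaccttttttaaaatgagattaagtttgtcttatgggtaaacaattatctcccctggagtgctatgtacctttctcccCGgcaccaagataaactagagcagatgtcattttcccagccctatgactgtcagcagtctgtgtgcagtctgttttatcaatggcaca
Nap1l5 HND 1, chr6:58851315-58851614 (+): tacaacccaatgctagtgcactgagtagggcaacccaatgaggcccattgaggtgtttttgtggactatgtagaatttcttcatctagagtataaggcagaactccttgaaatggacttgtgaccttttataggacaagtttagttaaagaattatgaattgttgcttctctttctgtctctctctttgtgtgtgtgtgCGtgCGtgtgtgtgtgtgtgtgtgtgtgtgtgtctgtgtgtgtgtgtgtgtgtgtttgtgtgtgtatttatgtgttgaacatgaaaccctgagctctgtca
Grb10 HND 1, chr11:11871202-11871501 (+): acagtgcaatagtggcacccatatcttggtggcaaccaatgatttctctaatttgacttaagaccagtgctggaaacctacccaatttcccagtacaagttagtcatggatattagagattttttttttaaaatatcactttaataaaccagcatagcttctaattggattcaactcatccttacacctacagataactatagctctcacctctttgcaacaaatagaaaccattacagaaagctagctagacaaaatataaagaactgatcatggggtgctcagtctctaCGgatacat
Grb10 HND 2, chr11:11934659-11934958 (+): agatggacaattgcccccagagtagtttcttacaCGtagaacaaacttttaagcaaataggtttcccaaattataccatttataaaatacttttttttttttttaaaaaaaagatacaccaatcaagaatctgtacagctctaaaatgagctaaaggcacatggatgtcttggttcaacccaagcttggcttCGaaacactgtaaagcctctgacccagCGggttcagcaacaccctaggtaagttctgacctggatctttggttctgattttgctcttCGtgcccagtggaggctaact

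The Peg10 stretch is coding sequence of a gene that derives from a retrotransposon, while the other stretches are intronic and hold few CpG. HND 1 of Grb10 had 1 CpG in its 375 bp and HND 2 had 9 in 549 bp. HND 2 of Snrpn had 2 in its 540 bp. The Nap1l5 stretch contains a run of TG dinucleotides, within which its capitals fall.

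Of the 19 imprinted clusters, 14 had at least 1 HND in their windows and 5 had none. The Snrpn cluster had 4 HNDs. Rasgrf1 and Dlk1-Meg3 had 3 each, and Gnas, Nap1l5, Grb10 and Igf2r had 2 each. The Mest, Peg10, Kcnq1, Plagl1, Nnat, Impact and Zrsr1 clusters had 1 HND each. The Peg3, H19-Igf2, Inpp5f, Trappc9 and H13 clusters had 0.

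**Figure D1:**
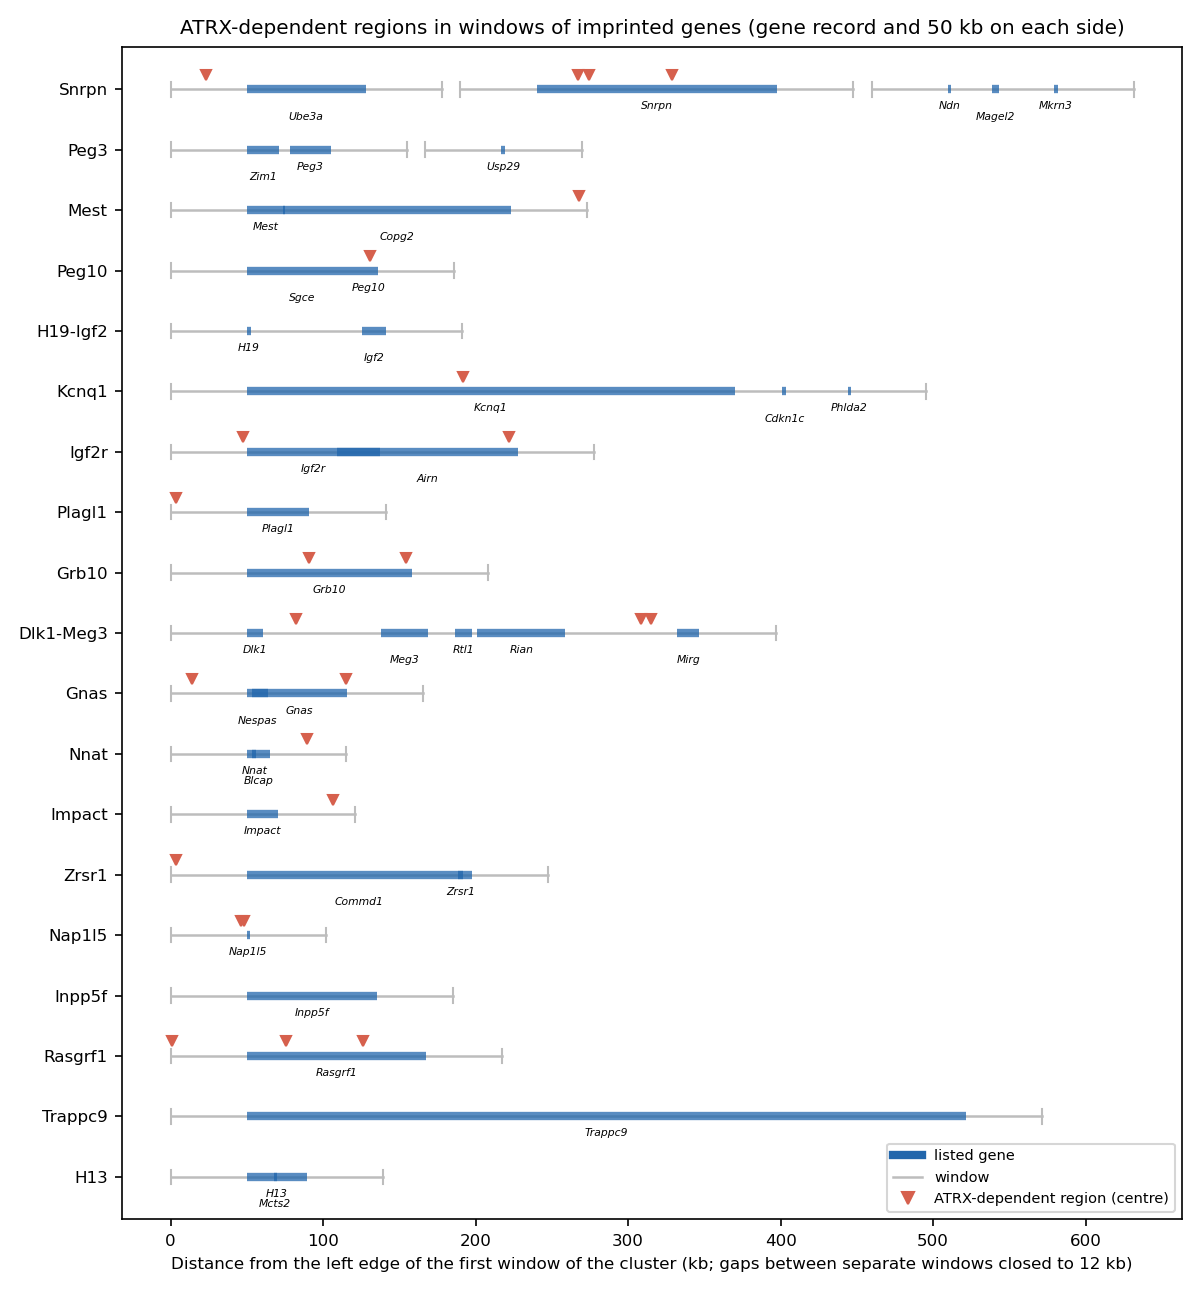
Map of the 19 imprinted clusters, with distance in kb from the left edge of the first window of each cluster on the horizontal axis; blue bars are listed genes, grey lines the windows and red triangles the centres of the 25 HNDs. In the Snrpn cluster 3 of the 4 triangles stand over the Snrpn record, while the Peg3, H19-Igf2, Inpp5f, Trappc9 and H13 lines carry none.

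Merging windows that overlap within a cluster left 22 windows of 4.90 Mb. They held 5.10 HNDs per Mb (95% Poisson interval 3.30 to 7.53), against 5.13 per Mb over the chromosomes of the list. From the density of HNDs on each chromosome, 24.2 HNDs would fall in windows of this length, which gives a ratio of observed to expected of 1.03 (0.669 to 1.53). The number of HNDs in imprinted windows was therefore close to that of the genome at large. Among single clusters, Rasgrf1 had 3 HNDs against 0.970 expected, Nap1l5 had 2 against 0.432 and Gnas had 2 against 0.641. In all 19 clusters the Poisson interval of the observed number included the expected one, so no cluster stood apart beyond counting error. The 5 clusters with 0 HNDs held 6.49 expected HNDs in 1345 kb, of which Trappc9 alone accounted for 2.79.

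**Figure D2:**
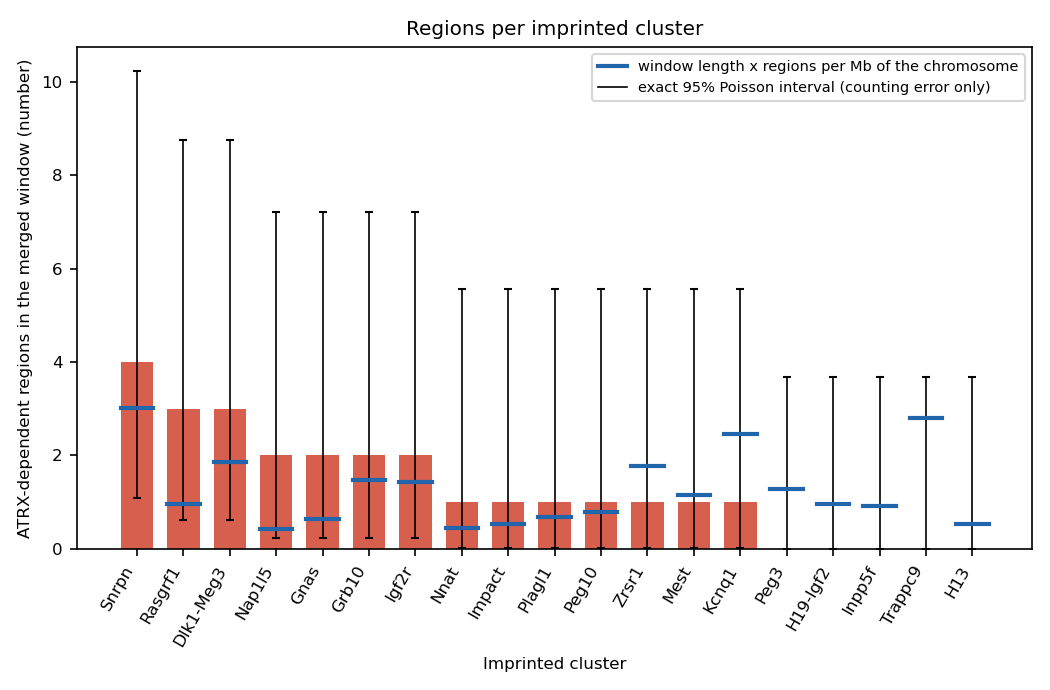
Number of HNDs in the merged windows of each imprinted cluster (red bars) with exact 95% Poisson intervals (black) and the number expected from the density on the same chromosome (blue lines). Snrpn has the highest bar, at 4 HNDs, and every interval, from 0 to 3.69 for clusters without an HND, spans its blue line.

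Counted by gene, 21 of the 39 windows (53.8%, 95% Wilson interval 38.6 to 68.4%) contained an HND. The same window rule met an HND for 39.5% of all 37273 gene records and for 40.6% of protein-coding ones, both inside the interval of the imprinted genes. Windows of long genes are longer, and neighbouring imprinted genes share HNDs. In classes of window length, all genes give 17.5 expected windows of 39 (44.8%). Listed genes with windows of 100 to 110 kb had an HND in 2 of 11 cases, against 36.3% of all genes of that class. In windows of 110 to 150 kb the count was 7 of 14, against 37.6%, and in those of 150 to 200 kb 5 of 6, against 47.8%. Above 200 kb it was 7 of 8, against 66.9%. Paternally expressed genes had an HND in 11 of 22 windows and maternally expressed genes in 10 of 17. These classes come from the gene list, and allelic expression in the ESCs was not measured.

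The records of 7 listed genes (17.9%) were themselves overlapped by an HND, against 7.21% of all gene records. These were Snrpn, Peg10, Kcnq1, Airn, Grb10, Gnas and Rasgrf1, with 11 HNDs. Apart from Peg10, which is 13.2 kb long, they span 62.4 kb or more. Overlap was not compared in classes of record length. Counting any gene, 18 of the 25 HNDs (72%) overlapped a record, against 29.5% of all HNDs of the list, where the windows were themselves drawn around genes. In 8 HNDs the overlap included an exon. The share of the whole list that overlaps an exon is not given here, so this count has no comparison.

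Paternally expressed genes with a germline DMR at the promoter are described next. Peg10, a gag-pol-derived gene required for placental development, was overlapped by an HND of 3176 bp at chr6:4703798-4706973, rank 93 by width among the 13113. It began 6.49 kb downstream of the Peg10 start and covered 2751 of 3015 coding bases (91.2%). The first coding segment lay inside it entirely and the second to 86.1%, whereas of the 3277 bases of the last untranslated segment it covered 0. The annotation keeps these segments 2 bases apart, at the place where Peg10 is known to be translated through a ribosomal frameshift. Only 10.3% of the HND lay outside annotated exons. The same HND was 6.59 kb from the nearest start of Sgce, the epsilon-sarcoglycan gene that is transcribed away from the shared promoter. Of its 50-base words 95.7% occurred once in mm9 by exact match. Alignment with up to 2 mismatches, as the authors used, was not modelled. Rtl1, another imprinted gene of retrotransposon origin, had no HND in its window, and the nearest was 103 kb from its record.

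Snrpn, which encodes a protein of the splicing machinery, was overlapped by 3 intronic HNDs. HND 2 of the cluster, at chr7:67154557-67155096, was 540 bp wide and lay 4.51 kb upstream of the Snrpn start at position 67150042. HND 3 (532 bp, chr7:67161181-67161712) lay 11.1 kb and HND 4 (351 bp, chr7:67215727-67216077) 65.7 kb upstream of that start. Both lie in introns of the long Snrpn transcripts. A RefSeq start of Snrpn lies farther upstream, at position 67595063, beyond the record used here. An HND of 1805 bp at chr7:67419108-67420912 lies between that start and the record. It was 134 kb from the record and is not among the 25 HNDs. HND 4 differed in sequence from HND 2, with 32.5% of its 50-base words unique against 100%. HND 3 was between them at 64.7%. In the same cluster, HND 1 (621 bp, chr7:66456897-66457517) was intergenic, 26.6 kb upstream of Ube3a, the maternally expressed ubiquitin ligase gene of Angelman syndrome. Ndn, Magel2 and Mkrn3 had no HND within 50 kb, and their nearest HNDs were 136, 137 and 99.0 kb away.

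Nap1l5 is a retrogene related to nucleosome assembly proteins that lies in an intron of Herc3. Its window of 102 kb held 2 HNDs, 0.785 kb apart, both downstream of its promoter. The wider of them, 2042 bp at chr6:58850444-58852485, lay in a Herc3 intron, 4.63 kb from the Nap1l5 start. The narrower one, 385 bp at chr6:58853271-58853655, lay 3.46 kb from the start and overlapped coding and untranslated sequence of Herc3. Together they covered 2.38% of the window, the highest share of all clusters.

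The other retrogenes with this arrangement differed. Zrsr1, a splicing factor gene inside Commd1, had 0 HNDs in its own window, and the nearest one was 71.8 kb from its start. The window of its host Commd1 held the widest of the 25 HNDs, 3422 bp at chr11:22686574-22689995 and rank 70 of the list, over an exon of the pseudogene Gm12058 and 44.7 kb from the Commd1 record. Mcts2, inside H13, was the listed gene farthest from an HND, at 200.0 kb. Inpp5f, of which a shorter transcript that starts in an intron is imprinted, had its nearest HND 135 kb from a start.

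Among the remaining paternally expressed genes, Plagl1, a zinc-finger gene that restrains growth, had 1 HND of 388 bp 46.6 kb upstream. Impact, a translational regulator, had 1 HND of 297 bp, 56.0 kb from its start and 35.3 kb beyond its record. Only 4.71% of the 50-base words of the Impact HND were unique, the lowest value of the 25. Nnat, which encodes a small membrane protein of neurons, and Blcap around it shared an HND of 1132 bp, 33.9 kb and 23.7 kb from their starts, over an exon of the non-coding transcript 2410019O14Rik. Rasgrf1, which activates Ras, had an HND of 933 bp 48.6 kb upstream and intronic HNDs of 383 bp and 544 bp 25.7 kb and 76.1 kb downstream of its only annotated start. Its germline DMR is known to lie upstream of the promoter and was not placed here. Mest, which encodes a hydrolase, had its nearest HND 199 kb from a start. The 1 HND of that cluster (703 bp) belonged to the window of Copg2, 43.9 kb upstream. Peg3, a zinc-finger gene, had none in its window, and neither had Zim1 and Usp29. The record of Usp29 is only 2.61 kb long, while its RefSeq start lies far upstream, at position 6683294. An HND at chr7:6745362-6745430 lies between that start and the record. The absence of HNDs for Usp29 and for the Peg3 cluster therefore depends on this short record.

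Maternally expressed genes and their antisense RNAs come next. Grb10 encodes an adaptor that restrains insulin signalling, and its record held 2 intronic HNDs. HND 1, 375 bp at chr11:11871165-11871539, lay 0.520 kb upstream of the start of a shorter annotated Grb10 transcript at position 11870645, the smallest distance of any HND to a listed start. That start is not among the RefSeq starts. HND 2, 549 bp at chr11:11934535-11935083, lay 2.32 kb downstream of a start at position 11937404. Both had 100% unique 50-base words. Gnas encodes the stimulatory G protein alpha subunit, and its HND 2, 1335 bp at chr2:174171295-174172629, covered the 3′ end of the gene with coding and untranslated sequence. It also overlapped AF085738. Its distance of 1.14 kb to a Gnas start refers to a short transcript near the 3′ end. From the RefSeq starts of Gnas the nearest HND was 15.8 to 39.1 kb away. HND 1 of that cluster, 225 bp, was intergenic and 36.1 kb from the record of Nespas, the antisense RNA of the locus.

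Igf2r, the receptor that clears the growth factor IGF2, had an HND of 333 bp at chr17:12872343-12872675, 2.60 kb beyond its 3′ end and 21.5 kb downstream of the nearest annotated start. Its antisense RNA Airn, transcribed from the germline DMR inside Igf2r, was overlapped by an HND of 101 bp, the narrowest of the 25. This HND also touched an untranslated exon of Mas1. Its distance of 38.5 kb refers to an internal Airn start at position 13008797. From the RefSeq start of Airn, position 12934177, the nearest HND was the one of 333 bp, 61.5 kb away. In the Kcnq1 cluster the only HND was 293 bp at chr7:150434940-150435232, in an intron of the potassium channel gene Kcnq1. It lay 47.2 kb from the RefSeq start of Kcnq1ot1, the antisense RNA that begins at the germline DMR of this cluster, which was placed on mm9 at position 150482452 by an exact match of its promoter sequence. Cdkn1c, a cell cycle inhibitor, and Phlda2, which limits placental growth, had no HND within 120 kb of their starts. Igf2 and H19 were 136 and 158 kb from the nearest HND.

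The Dlk1-Meg3 cluster carries the paternally expressed genes Dlk1 and Rtl1 and a chain of maternally expressed non-coding RNAs, which host many microRNAs and small nucleolar RNAs. HND 1 (2391 bp, chr12:110721807-110724197) lay between Dlk1, a ligand related to the Notch pathway, and Meg3. It was 23.8 kb downstream of the nearest Dlk1 start and 55.0 kb upstream of Meg3. HND 2 (1131 bp, chr12:110948676-110949806) and HND 3 (1335 bp, chr12:110955248-110956582) lay 5.44 kb from each other, between the records of Rian and Mirg. Both had 100% unique 50-base words. They overlapped 3 of the 56 microRNA records in the cluster windows, Mir666, Mir543 and AC121784.4 (5.36%), against 14 of 1577 microRNA records in the whole annotation (0.888%). These 3 records sit in 2 neighbouring HNDs and are not independent. By sequence, the RefSeq hairpins of Mir299a and Mir299b, which are complementary strands of one site, fell inside HND 2 and that of Mir543 inside HND 3. The mature forms from the Meg3 strand are given with their seed, bases 2 to 8, in capitals.
mmu-miR-299a-5p: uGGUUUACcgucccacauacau
mmu-miR-299a-3p: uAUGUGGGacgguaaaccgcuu
mmu-miR-543-5p: aAGUUGCCcgcguguuuuucg
mmu-miR-543-3p: aAACAUUCgcggugcacuucuu

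The seeds of these 4 forms differ from one another, while miR-299b-3p, from the other strand, has the same seed as miR-299a-3p. No value of microRNA expression belongs to the list.

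Distances to promoters were measured from each HND edge to the nearest annotated start of a listed gene. The median over the 25 HNDs was 23.8 kb (95% interval of the median 11.1 to 43.9 kb), with a range from 0.520 to 167 kb. In 12 HNDs the position was upstream and in 13 downstream of that start. None of the 25 overlapped a listed start. Within 1 kb of a listed start there was 1 HND, within 5 kb there were 6 and within 10 kb 7.

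Seen from the genes, 1 of 39 (2.56%) had an HND within 1 kb of a start, against 1.25% of all genes. Within 5 kb the count was 4 (10.3%, 4.06 to 23.6%), against 4.74%, and the genes were Snrpn, Grb10, Gnas and Nap1l5. With Peg10 and Sgce, which share an HND, it was 6 within 10 kb (15.4%, 7.25 to 29.7%), against 9.17%. Within 50 kb it was 17 (43.6%, 29.3 to 59.0%), against 35.9%. The median distance from a gene to its nearest HND was 62.2 kb for listed genes and 81.0 kb for all genes. For the distances of 1, 5, 10 and 50 kb the share of all genes lay within the interval of the listed ones.

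All 6 genes with an HND within 10 kb of a start belong to the 16 genes whose promoter is known to lie in or share a germline DMR (37.5%, 18.5 to 61.4%), against 9.17% of all genes. Gnas is among them only through the start of the short transcript near its 3′ end, which is not a DMR promoter, and without it the count is 5 of 16 (31.2%). Those 5 include Peg10 and Sgce, which share 1 HND. The start of Grb10 at 0.520 kb is that of a shorter transcript absent from the RefSeq starts, and its nearest RefSeq start was 2.34 kb from an HND. Of the 23 other listed genes 0 had one (upper bound of the interval 14.3%), and the smallest distance among them was 16.6 kb, at Mirg. The medians were 39.4 kb and 86.2 kb. Among the 23 is Usp29, measured from its short record. Its RefSeq start (position 6683294) lies beside that of Peg3 (6683130), a gene of the germline DMR class, and 62.1 kb from an HND. Class sizes and medians with Usp29 moved were not computed. The first median includes Airn at 38.5 kb from an internal start, whereas its RefSeq start was 61.5 kb from an HND. The 6 genes rest on 7 HNDs, and genes with a germline DMR include Gnas and Grb10 with 16 and 9 annotated starts. The germline DMR class was chosen with earlier results of these data known, so the contrast between the classes only describes this list. Positions of the DMRs themselves were not used here. Among 45 RefSeq starts of 31 listed genes, 0 were overlapped by an HND. Only those of Grb10, Nap1l5 and Snrpn were within 5 kb, at 2.34, 3.46 and 4.47 kb.

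**Figure D3:**
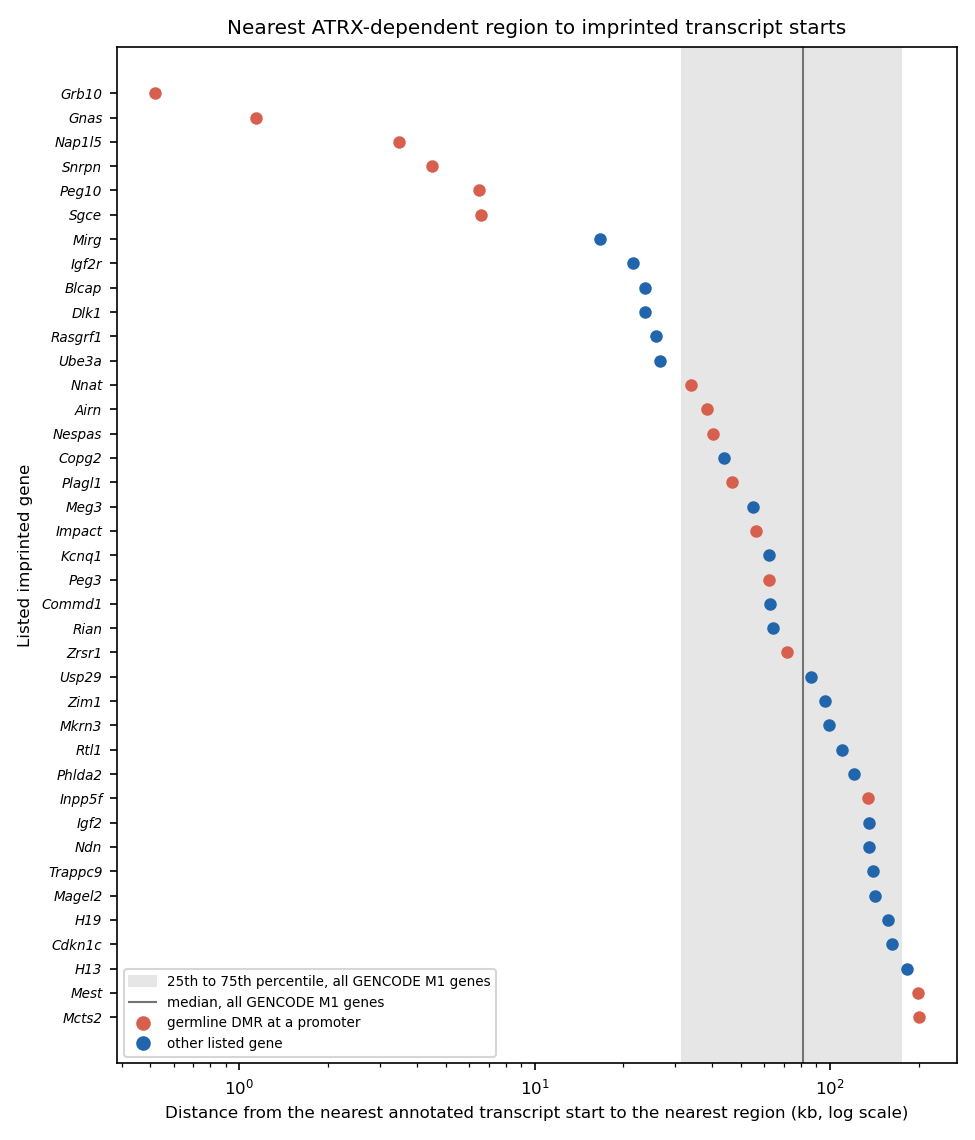
Distance in kb (log scale) from the nearest annotated transcript start of each of the 39 listed genes to the nearest HND; red points are genes with a germline DMR at a promoter, blue points the others, and the grey band and line are the quartiles and the median of all genes. The 6 points left of 10 kb are all red, and blue points begin at 16.6 kb. Gnas is among the 6 only through a short transcript near its 3′ end, and the germline DMR class was chosen with earlier results known.

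The bound of 50 kb cut through few HNDs. Just inside were HND 2 of the Dlk1-Meg3 cluster, 48.8 kb from Rian but 23.4 kb from Mirg, HND 1 of Rasgrf1 at 48.6 kb and that of Plagl1 at 46.6 kb. Just outside were HNDs at 52.9 kb from Nespas (162 bp), 60.8 kb from Copg2 (183 bp), 62.2 kb from Kcnq1 (281 bp) and 62.2 kb from Peg3 (69 bp). The last of them is the HND between the RefSeq start and the record of Usp29.

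Unique 50-base words were counted in the merged windows of the clusters. They made up 96.0% in the 5 clusters without an HND (91.8 to 98.9% by cluster) and 95.4% in the 14 clusters with one (89.5 to 98.6%). The latter include windows of single genes that had none. Within 1 kb of their starts 36 of the 39 genes had at least 90% unique words, the exceptions being Meg3 at 70.0%, Rian at 82.5% and Zim1 at 89.2%.

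The median width of the imprinted HNDs was 544 bp (95% interval of the median 383 to 1131 bp; quartiles 375 and 1132 bp), against 422 bp in the list. The list's median lay inside this interval. Of the 25, 1 was under 200 bp (4%), against 20.4% of the list, and 4 were 2 kb or wider (16%), against 3.01%. Those 4, beside Peg10, Commd1, Dlk1 and Nap1l5, held 46.9% of the bases. The HNDs covered 0.480% of the imprinted windows, against 0.310% of the chromosomes, at nearly the same number per Mb.

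Their G+C content was 45.9% over all bases, against 44.7% in the list. Per HND the mean was 44.7% ± 5.03 (SD over 25 HNDs), against 45.3% ± 6.10 over the list, so the difference was well within the spread between HNDs. The highest value was 56.4% at Airn and the lowest 34.2% in an intron of Rasgrf1.

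**Figure D4:**
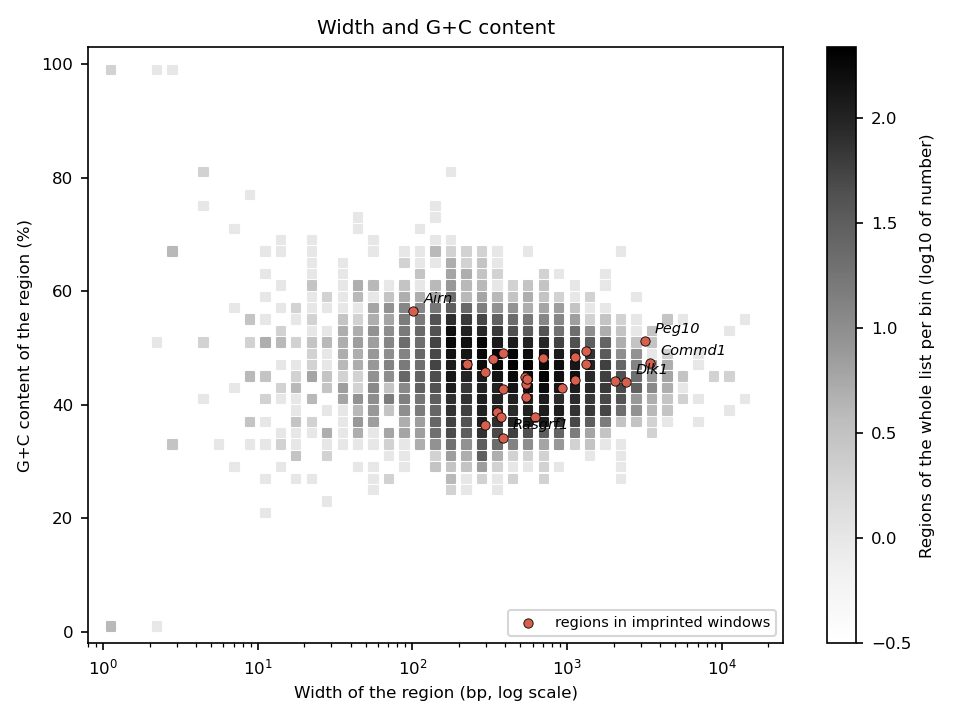
Width in bp (log scale) and G+C content in percent of the 25 HNDs in imprinted windows (red points) over the whole list (grey squares, darker where more HNDs fall in a bin). The red points lie inside the grey cloud, with Peg10 and Commd1 at its wide edge and the HND of Airn at 101 bp.

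CpG content was low at the imprinted HNDs. The ratio of observed to expected CpG was 0.284 over their bases, against 0.221 in the list. Its median over HNDs was 0.235, and Peg10 had the highest value, 0.453. None exceeded 0.6, a usual bound for CpG islands, as did 3.34% of the list. For the 500 bp on each side of the 45 RefSeq starts of imprinted genes the median was 0.698, and 28 exceeded 0.6. The HNDs thus differed in CpG content from most imprinted promoters, which they did not overlap.

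**Figure D5:**
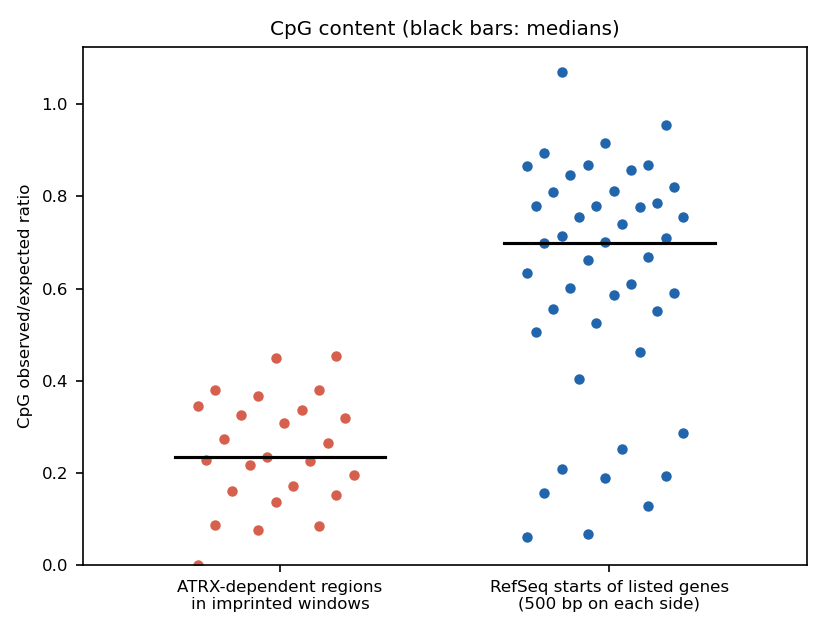
Ratio of observed to expected CpG of the 25 HNDs (red) and of 45 RefSeq starts of imprinted genes with 500 bp on each side (blue), each point 1 region and black bars medians. The HNDs lie between 0 and 0.453 and the starts between 0.0606 and 1.07.

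Repeated sequence made up less of the imprinted HNDs than of the list. Of their 50-base words 92.4% were unique in mm9, against 71.3%, and 13 HNDs (52%) were unique throughout, against 32.4%. The merged windows of the clusters with an HND had 95.4% unique words as a whole, so the HNDs were not more unique than their windows. A 24-base word with 100 or more copies was present in 14 (56%), against 73.3%. In 3 HNDs, those of Impact, Snrpn HND 4 and Rasgrf1 HND 2, under 50% of words were unique.

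Motifs were searched on both strands. TTAGGG, the telomere repeat, occurred in 6 HNDs (24%), against 20.3% of the list and 28.7% of an equal mix of widths. A G-quadruplex pattern, which is 4 runs of G with short loops, occurred in 3 (12%), against 6.54% of the list and 10.5% at equal widths. They were Gnas HND 2, Peg10 and Rasgrf1 HND 3. TGCCGC, the hexamer that ZFP57 binds when methylated, occurred in 6 (24%), against 7.16% of the list and 9.93% at equal widths, or 2.48 of 25. Per kb it occurred 0.255 times, against 0.143 in the list. The hexamer contains a CpG, and the ratio of observed to expected CpG was 0.284 in the imprinted HNDs against 0.221 in the list. CpG content was not matched, and no interval is given for this count. The HNDs with TGCCGC were Gnas HND 2, Peg10, Mest HND 1, Rasgrf1 HND 1, Plagl1 and Igf2r HND 1, and each held it 1 time. A match is a string of letters and not a bound site.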

How the data were processed

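Chromatin of WT and Atrx KO ESCs was digested with MNase, sonicated and precipitated. Single-end reads of 50 bp were aligned by the authors with Bowtie2 against mm9 with at most 2 mismatches. They kept uniquely mappable reads, called peaks with MACS2 (broad cutoff 0.1) against input and retained those found in WT and not in KO. How replicates were joined and what overlap counted as absent are not given in the sources used here. The deposited file holds 1 list of chromosome, start and end in bp, with no score.

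Positions were counted from 1. Windows, overlaps and distances used GENCODE M1 on mm9. RefSeq starts and hairpins (GRCm38 tables) were placed by exact sequence match, and 31 of the 40 listed genes matched. Copies of 50-base and 24-base words were counted over mm9. Expected numbers are window length times density, and expected shares are those of all genes or HNDs of equal length class. Intervals are 95% Poisson or Wilson intervals, and those of medians come from order statistics. The searches were tested on simulated data with 0 wrong answers.

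The imprinted genes, the germline DMR class and the other lists were chosen with earlier results of these data known. HNDs are named where they lie nearest to a listed start, overlap a listed gene, are the widest of a cluster or lie near the 50 kb bound. Alternatives were other flanks, leaving out HNDs under 200 bp, joining HNDs within 1 kb, centres, other starts and other averages. Random placements, read depth, DMR coordinates and parental alleles were not used here. Python 3.11.15 was used with numba 0.67.0, numpy 2.4.6, matplotlib 3.10.9 and scipy 1.17.1.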

Additional observations from a re-analysis of the deposited data

How the results depend on the processing

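The flank decided the number of HNDs and of windows with one, as its construction implies. With flanks of 0, 20, 100 and 200 kb the number was 11, 15, 37 and 76, at 4.32 to 6.71 per Mb. With flanks of 0, 20, 100 and 200 kb the share of listed gene windows with an HND was 17.9%, 28.2%, 71.8% and 97.4%, against 7.21%, 22.3%, 59.0% and 80.0% of all genes. Distances from only the outermost start of each gene gave a median of 46.6 kb, and RefSeq starts, chosen after seeing the data, 29.7 kb. The mean G+C content over HNDs was 44.7%. Leaving out HNDs under 200 bp and joining HNDs within 1 kb each gave 24 HNDs with a median width of 546 bp, and using centres gave 25. Protein-coding listed genes only (chosen after seeing the data) gave 51.5% of windows, and leaving out the Snrpn cluster gave 21 HNDs and 4.89 per Mb. Extending the HNDs by 100 bp gave 45.4% G+C.

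No paired analysis was possible because values of single libraries are not part of the list, and leaving out a replicate was not run for the same reason. With 25 HNDs only differences well outside the Poisson and Wilson intervals could be seen, and clusters with 0 HNDs allow up to 3.69 each. The depth behind each HND is unknown. The paper reports that enrichment over input was lower in its KO samples and considers some loss of H3K9me3 a likely reason. Enrichment in the KO libraries was not measured here, and its part in the list was not tested.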

Other observations

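A second list held 32 further genes reported as imprinted, many of them at the edges of the same clusters. Of these, 29 had a record, and Snurf, Zim2 and Zim3 had none under those names. In 12 of the 29 windows (41.4%) there was an HND, against 39.5% of all genes, and 6 records (20.7%) were overlapped, against 7.21%. Here too overlap was not compared in classes of record length, and some of the overlapped records, such as those of Cobl and Atp10a, are long. Atp10a, a phospholipid transporter gene beside Ube3a, held an intronic HND of 1832 bp 3.07 kb from a start. Klf14, a transcription factor gene with a single exon near Mest, was overlapped in coding and untranslated sequence by an HND of 183 bp, 1.17 kb from its start. This is the HND that lay just outside the window of Copg2. Kcnk9, a potassium channel gene next to Trappc9, and Zdbf2 had HNDs of 694 and 672 bp in coding sequence, 33.4 and 11.9 kb from a start. Cobl next to Grb10 had an intronic HND of 2655 bp, 11.1 kb from a start, and Slc22a3 next to Igf2r one of 275 bp, 33.7 kb from a start. Cd81 near Kcnq1 was not overlapped but had an HND 7.65 kb from a start. Thus 3 of 29 genes, Atp10a, Klf14 and Cd81, had an HND within 10 kb of a start (10.3%), close to the 9.17% of all genes.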
